A study of Mus musculus with 2 samples.

Results

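*Btg1*, *Btg2*, *Btg3*, *Tob1* and *Tob2* were followed in RNA-seq counts of mouse hematopoietic stem cells (HSCs). They are the 5 rows, of 24421 gene rows in the count files, that carry these symbols, and the family was chosen because *Btg2* was known to be much lower in the library labelled Ezh2 KO, so its own ratio is a description and was given no test. There were 2 libraries, 1 per group. The WT library came from cells of genotype Ezh2 +/+ CreERT+/- and the other from cells of genotype Ezh2 Δ/Δ CreERT+/-, both on C57BL/6, so both groups carried the tamoxifen-inducible recombinase. Marrow of CD45.2 donors had been placed in lethally irradiated CD45.1 hosts, tamoxifen (100 µl of a 10 mg/ml solution each day) was injected for 5 days, and lineage-negative, Sca-1+ and c-kit+ marrow cells that were CD150+ but CD48-, CD34- and Flt3- were taken 1 month afterwards. The marker string names no CD45 allele, and the age of the mice, the promoter of the recombinase and the number of animals behind each library are not given in the sources used here.

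BTG and TOB proteins make up the antiproliferative (APRO) family. They have no catalytic activity of their own. Through a shared N-terminal domain they bind the deadenylases CNOT7 and CNOT8 of the CCR4-NOT complex, which shortens the poly(A) tails of mRNAs, and TOB proteins also hold the cytoplasmic poly(A)-binding protein through C-terminal motifs. Forced expression of family members slows entry into S phase, and *Btg1* and *Btg2* are known for keeping T cells quiescent. *Btg2* was first cloned as a gene induced within minutes by growth factors or phorbol ester, and it is also a p53 target.

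The sequence before the start of the short BTG genes *Btg2* and *Btg1* is shown as a description, and any part of it in their ratios was not tested. Each run is the 250 bases before the RefSeq start, 5′ to 3′ on the strand of the gene, and capitals mark matches to TGACGT on either strand (RefSeq, GRCm38.p6; chr1:134079156-134079405, minus strand, for *Btg2* and chr10:96616751-96617000, plus strand, for *Btg1*).
Btg2: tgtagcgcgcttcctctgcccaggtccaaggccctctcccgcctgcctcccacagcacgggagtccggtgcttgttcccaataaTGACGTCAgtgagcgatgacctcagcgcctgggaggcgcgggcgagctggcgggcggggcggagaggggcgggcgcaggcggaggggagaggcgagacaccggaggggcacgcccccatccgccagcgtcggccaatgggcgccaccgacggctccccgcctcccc
Btg1: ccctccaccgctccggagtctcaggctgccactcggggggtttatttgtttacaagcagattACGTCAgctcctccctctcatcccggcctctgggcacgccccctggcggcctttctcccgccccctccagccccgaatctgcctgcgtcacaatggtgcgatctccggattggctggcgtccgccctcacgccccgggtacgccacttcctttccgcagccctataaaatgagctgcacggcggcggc

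The *Btg2* run held the full palindrome TGACGTCA, the cAMP response element (CRE) that ATF and CREB factors bind, beginning 166 bases before the start. It is made of a pair of overlapping TGACGT matches. The *Btg1* run held a TGACGT match on the other strand, beginning 188 bases before the start, and no full palindrome. Of the 32851 RefSeq windows of 300 bases in the table (250 before and 50 after a start, 27025 genes), 1.79% held TGACGTCA and 7.51% held TGACGT on either strand, and the windows of *Tob1*, *Tob2* and *Btg3* held neither. TGACG, the CRE half-site, was found 2 times in the window of *Btg2*, 2 times in that of *Btg1* and 1 time in that of *Tob1*. At least 1 was in 20.8% of all windows. GGGCGG, the GC box, was found 3 times each in the windows of *Btg2* and *Tob1*. It was found 2 times each in those of *Btg1* and *Tob2*. *Btg3* held it 2 times in its window at chr16:78376761-78377060 and 0 times in that at chr16:78377132-78377431. Of all windows, 35.7% held at least 1. TATAAA lay 26 bases before the start of *Btg1* and 47 before that of *Tob1*, and was in 13.6% of all windows. TGANTCA (AP-1, 7.81% of windows), the CArG box of serum response factor (1.63%) and the p53 half-site (8.36%) were searched on both strands and were in none of the members' windows. A match is a description of these letters and says nothing of binding in these cells.

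The libraries were checked before the members were read. Gene counts summed to 5763118 (WT) and 4157280 (library labelled Ezh2 KO), so the smallest level either could show, taken as 3 counts, was 0.521 and 0.722 CPM (gene counts divided by the library total and scaled to 1e+06). *Ezh2*, the targeted methyltransferase gene, had 166 WT counts and 129 in the other library (142.5 and 150.3 after scaling, log2 ratio 0.08, 95% counting interval -0.27 to 0.42). It was thus not lower in the library labelled Ezh2 KO, and counts over the whole gene do not show loss of single exons, so every direction below rests on the label alone. The 9 HSC markers (among them *Kit*, *Procr*, *Mecom* and *Hlf*) were all present, with a summed level of 4143 CPM in WT and 4440 in the other library and none past 2-fold. The 3 genes whose products the sort excluded (*Cd34*, *Cd48* and *Flt3*) summed to 185 and 236 CPM, most of it *Cd34* (957 and 829 counts). *Flt3* had 98 and 140 counts (log2 ratio 0.95, 0.57 to 1.34). *Xist* had 801 and 4 counts, and the Y-linked *Ddx3y* 0 and 275, so the sex of the cells and the genotype label cannot be told apart. With 1 library per group, the spread between replicates is unknown for every difference given here. Intervals cover counting error only and treat each read as independent. The reads come from PCR copies that carry no molecular identifier, so the intervals can be too narrow.

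*Btg2* was the member with a large difference. *Btg2* (ENSMUSG00000020423.6, chromosome 1, 134075170 to 134079120, minus strand, mm10), a short BTG protein of the immediate early class, had 862 WT counts, against 205 in the library labelled Ezh2 KO. Divided by DESeq2 size factors, which bring the libraries to a common scale, these were 739.7 normalised counts (exact Poisson interval 691.2 to 790.8) and 238.9 (207.3 to 273.9). The intervals lay far apart, with the library labelled Ezh2 KO 67.7% below WT. On the log2 scale of normalised count plus 1, the ratio of the library labelled Ezh2 KO over WT was -1.63 (95% counting interval -1.86 to -1.41), or 3.09-fold lower. In bulk RNA, fewer cells that express a gene and less of its RNA per cell cannot be told apart.

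*Btg1*, the nearest relative of *Btg2* in the family (ENSMUSG00000036478.8, chromosome 10, 96617006 to 96622809, plus strand), had 615 WT counts and 385 in the other library. These were 527.8 normalised counts (486.9 to 571.2) and 448.6 (404.9 to 495.8). The mean of the 2 normalised counts was 488 for *Btg1* and 489 for *Btg2*, so both were read at the same depth. The log2 ratio of *Btg1* was -0.23 (-0.42 to -0.05). The single-library intervals overlapped, which is not a test of the difference, and the counting interval of the ratio left out 0.

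The TOB genes were both slightly lower. *Tob1* (ENSMUSG00000037573.5, chromosome 11, 94211454 to 94215495, plus strand) had 190 and 107 counts, or 163.0 normalised counts (140.7 to 188.0) and 124.7 (102.2 to 150.7). Its log2 ratio was -0.38 (-0.74 to -0.04). *Tob2* (ENSMUSG00000048546.8, chromosome 15, 81848272 to 81858796, minus strand) had 832 and 460 counts, or 714.0 normalised counts (666.3 to 764.2) and 536.0 (488.2 to 587.3). The log2 ratio of *Tob2* was -0.41 (-0.58 to -0.25). The single-library intervals overlapped for *Tob1* and did not for *Tob2*, and *Tob1* was the least counted of the members with reads. The counting intervals of both ratios left out 0.

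*Btg3* (ENSMUSG00000022863.15, chromosome 16, 78332637 to 78377192, minus strand) was listed at 0 in both libraries, so it has no ratio. A count of 0 allows up to 0.521 CPM in WT and 0.722 CPM in the other library, for reads the counting could assign. Part of the gene could not be assigned alone. In its transcript of 1414 bases, 697 of 1355 windows of 60 bases (51.4%) were identical to transcripts of *Gm7334*. That gene, annotated as a processed pseudogene, was also listed at 0. The share with any other gene was 28.6% in the longest *Btg3* transcript (3013 bases) and 91.9% in that of 442 bases. Of the 4014 exon bases of *Btg3*, 695 lay opposite exons of *Cxadr*. The ribosomal protein gene *Rpl26*, named after its value was seen, was listed at 0 in both libraries as well, so a listed 0 does not show that RNA was absent. By the same search, windows shared with other transcripts made up 2.19% of the 5001-base *Btg1* transcript and 3.67% of the 4151-base *Tob2* transcript. In shorter transcripts the share reached 17.7% for *Btg1* (668 bases) and 19.2% for *Tob2* (615 bases). Of the 2684 windows of *Btg2* and the 2229 of *Tob1*, 0 were shared. The oocyte gene *Btg4* and the rows *Btg1-ps1* and *Btg1-ps2* were at 0 in both libraries.

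**Figure D1:**
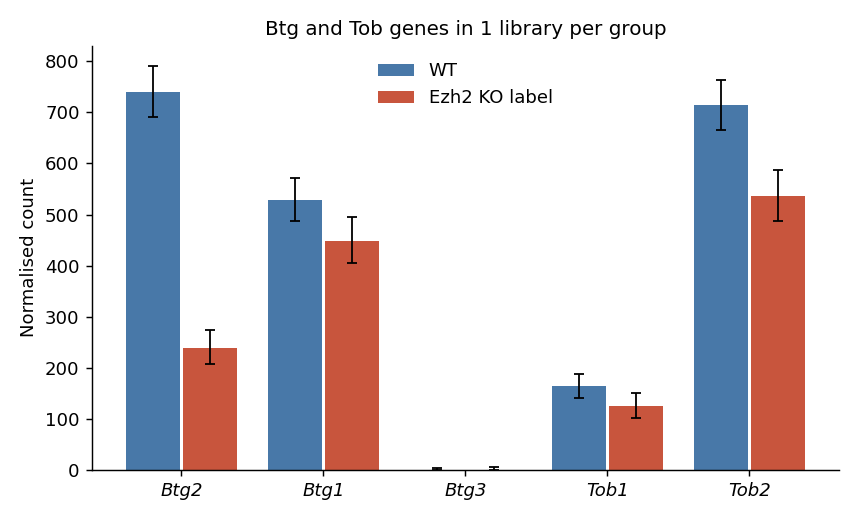
Normalised counts of the 5 genes (vertical axis, linear from 0) in the WT library (blue) and the library labelled Ezh2 KO (red), 1 library each; error bars are exact 95% Poisson intervals and cover counting error only. *Btg2* stands at 739.7 and 238.9, the *Btg1* and *Tob1* bars have overlapping intervals, and *Btg3* is at 0 in both. Overlap is not a test of a difference.

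Of the 5 genes, 1 was at least 2-fold lower and 0 were at least 2-fold higher in the library labelled Ezh2 KO. Across the 12588 genes with a mean of at least 1 CPM, 3.9% were 2-fold lower and 4.91% were 2-fold higher. Among the 7133 genes with a mean of 100 to 1000 normalised counts, the range that holds all 4 counted members, 0.589% were 2-fold lower, 0.491% were 2-fold higher and 0.0841% (6 genes) were 3-fold lower, with 0.0841% also 3-fold higher. *Btg2* had the 5th lowest log2 ratio in that range, at -5.46 robust SDs from the median of -0.01 (the robust SD, a scaled median absolute deviation, was 0.30 on the log2 scale). *Btg1*, *Tob1* and *Tob2* lay at -0.75, -1.26 and -1.36 robust SDs, within the spread of genes of like abundance. All 4 counted members had log2 ratios below 0, as did 51.7% of genes in that range and 50.4% of all genes tested. The median log2 ratio was -0.40 over the 4 and -0.38 over the 3 without *Btg2*, against -0.0032 over all genes tested. *Btg2* was chosen on this contrast, so nothing is read from its place in these counts.

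**Figure D2:**
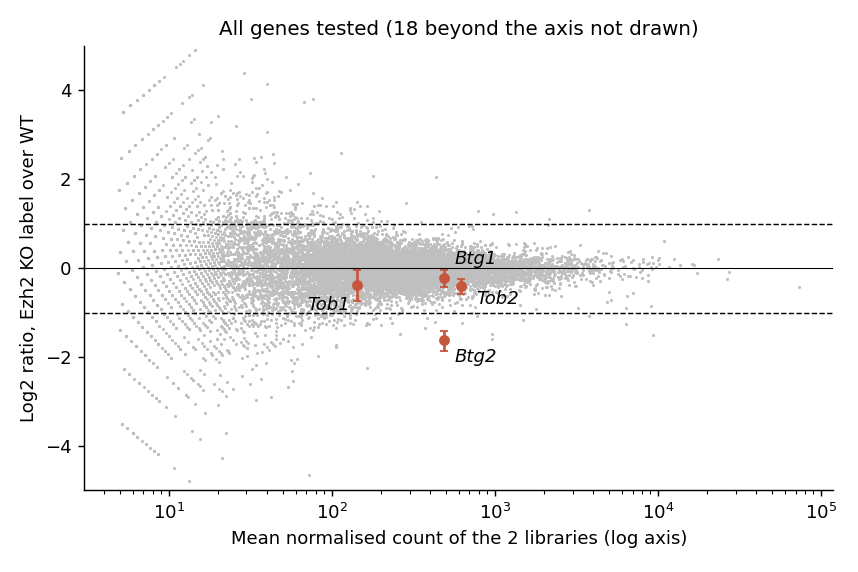
Log2 ratio of the library labelled Ezh2 KO over WT (vertical axis) against the mean normalised count of the 2 libraries (horizontal log axis) for the 12588 genes tested (grey), with the 4 counted family members in red and their 95% counting intervals; dashed lines mark 2-fold, and 18 genes beyond the axis are not drawn. *Btg2* at -1.63 lies below nearly all genes of its abundance, while *Btg1*, *Tob1* and *Tob2* lie inside the grey band.

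The shares of the family counts, which need no scaling, restate the difference for which *Btg2* was chosen and are given as a description. *Btg2* held 34.5% of the 2499 family counts in WT (95% Wilson interval 32.7% to 36.4%), against 17.7% (of 1157) where the label was Ezh2 KO (15.6% to 20.0%). *Btg1* went from 24.6% (23.0% to 26.3%) to 33.3% (30.6% to 36.0%), and *Tob2* from 33.3% (31.5% to 35.2%) to 39.8% (37.0% to 42.6%). *Tob1* held 7.60% (6.63% to 8.71%) and 9.25% (7.71% to 11.1%), with overlapping intervals. The larger shares of *Btg1*, *Tob1* and *Tob2* stand beside lower normalised counts of all 3, so they do not show more of these RNAs. The summed normalised count of the family was 2145 in WT and 1348 in the other library, and *Btg2* made up 62.9% of that gap.

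Ratios between members are also free of scaling. Those with *Btg2* carry the contrast it was chosen on and are a description only. There were 1.40 *Btg2* counts for each *Btg1* count in WT, against 0.532 under the Ezh2 KO label, a log2 change of -1.40 (95% counting interval -1.69 to -1.10). The *Tob1* to *Tob2* ratio was 0.228 and 0.233, a log2 change of 0.03 (-0.37 to 0.42), so any change between the TOB genes up to that size was not detectable at this depth. The *Btg1* to *Tob2* ratio was 0.739 and 0.837, a log2 change of 0.18 (-0.07 to 0.43), and the *Btg1* to *Tob1* ratio changed by 0.15 (-0.25 to 0.56). The interval of the change included 0 for each of the 3 pairs without *Btg2*, which does not show that those genes moved alike.

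Levels of different genes were compared per length, as CPM per kilobase of annotated exon. In WT, *Btg2* was at 54.5 (50.9 to 58.3), at or above 91.3% of the 12504 genes with a length. *Tob2* at 21.7 (20.2 to 23.2) and *Btg1* at 20.2 (18.7 to 21.9) came next, with overlapping intervals, and *Tob1* was last at 14.4 (12.4 to 16.6). *Btg2* was thus 2.52 times the next member. In the library labelled Ezh2 KO, *Btg2* at 18.0 (15.6 to 20.6), *Btg1* at 17.6 (15.8 to 19.4) and *Tob2* at 16.6 (15.1 to 18.2) could not be ordered beyond counting error. *Tob1* was again last at 11.2 (9.22 to 13.6). *Btg2* was at or above 71.7% of genes there, close to *Btg1* at 71.2%. With the longest transcript in place of all exons, *Tob2* stood at 34.8 in WT and 26.7 in the other library; *Btg2* remained first in WT at 1.57 times *Tob2*, whereas *Tob2* came first in the library labelled Ezh2 KO.

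**Figure D3:**
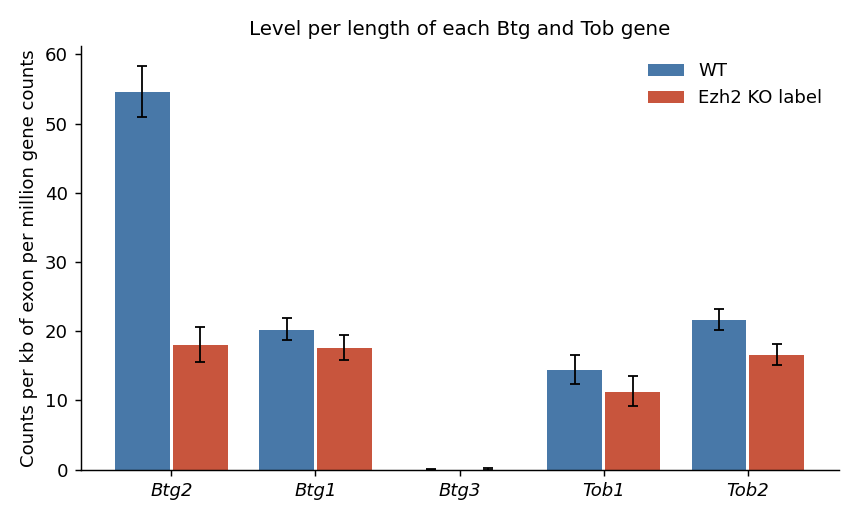
Level of each gene per length (vertical axis, CPM per kilobase of annotated exon, linear from 0) in the WT library (blue) and the library labelled Ezh2 KO (red), with exact 95% Poisson counting intervals. *Btg2* stands at 54.5 above the others in WT, and *Btg2*, *Btg1* and *Tob2* lie between 16.6 and 18.0 in the other library.

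Genes of the machinery through which BTG and TOB proteins act stayed under 2-fold. All 12 CCR4-NOT genes were tested and 0 were past 2-fold in either direction, against 3.9% lower and 4.91% higher of all genes tested. Among genes with a mean of 100 to 1000 normalised counts, these shares were 0.589% and 0.491%. The median log2 ratio of the 12 was -0.04, with a range of -0.24 to 0.33. *Cnot7*, a deadenylase that the family binds, had 580 and 537 counts (497.7 and 625.8 normalised, log2 ratio 0.33). *Cnot8*, its close relative, had 874 and 568 counts (750.0 and 661.9 normalised, log2 ratio -0.18). Of 15 genes for poly(A)-binding proteins, other deadenylases and decapping, 0 were past 2-fold, with a median of 0.05 and a range of -0.25 to 0.80. At the shares above, lists of 12 and 15 genes would hold few or none past 2-fold, so these counts do not set the machinery apart from other genes. The exonuclease gene *Xrn1* had 79 and 102 counts (log2 ratio 0.80, 0.37 to 1.25) and *Pan3*, of the PAN deadenylase, 121 and 130 (0.54, 0.18 to 0.91). *Pabpc1*, the main cytoplasmic poly(A)-binding protein, had 2963 and 3033 normalised counts.

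Of 12 genes for other reported partners of the family, 9 were tested, 1 was 2-fold lower and 1 was 2-fold higher, against 3.9% and 4.91% of all genes tested. The median was -0.05. *Prmt1*, the arginine methyltransferase that BTG1 and BTG2 bind, had 641.0 and 628.1 normalised counts. *Smad1* and *Smad4*, signal carriers of the BMP pathway that TOB proteins dampen, had log2 ratios of 0.01 and -0.05. *Smad5* and *Smad6*, also in the list, had -0.19 (-0.39 to 0.01) and 0.54 (0.15 to 0.94). The gene past 2-fold lower was *Hoxb9*, a homeobox partner of BTG1 and BTG2, with 35 WT counts and 1 in the other library. The gene past 2-fold higher was *Cpeb3*, an mRNA-binding protein that TOB tethers to CCR4-NOT, with 4 and 28 counts. Both had under 10 CPM and were named after their values were seen.

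The immediate early response genes, the class to which *Btg2* belongs, held more genes below 0 than above. Of 30 genes, 27 were tested, 9 were 2-fold lower and 0 were 2-fold higher, against 3.9% and 4.91% of all genes tested. Of the 27, 23 had log2 ratios below 0 and 4 above, against 50.4% of all genes below 0. Their median was -0.76, against -0.0032 over all genes, and it was the same with *Egr2* (18 and 0 counts, at least 4.42-fold lower) set at its bound. *Fos*, an AP-1 subunit gene, had 16143 and 4198 counts, or 13853 and 4892 normalised (log2 ratio -1.50, -1.55 to -1.45). *Nr4a1*, an orphan nuclear receptor gene, had 1417 and 502.2 (log2 ratio -1.49, -1.65 to -1.34). *Egr1* had a log2 ratio of -1.26 and *Dusp5*, a phosphatase gene that restrains ERK, one of -1.25. Only *Egr2* among the 27 had a lower log2 ratio than *Btg2*, whose ratio minus the median of the list was -0.86. *Btg2* was chosen for its fall in this contrast, so its place beside the list is a description only. The list itself was drawn up with earlier results of these data known. *Myc*, in the same list, had 2638 and 3269 normalised counts and a log2 ratio of 0.31. Whether the level of this group and that of *Btg2* have a common source was not tested.

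Of 25 p53 targets, all were tested, and 2 were 2-fold lower and 0 were 2-fold higher, against 3.9% and 4.91% of all genes tested. Their median was -0.26, and 18 were below 0, against 50.4% of all genes. *Plk2*, a polo-like kinase gene that is also induced by serum, had 1029 and 322 counts (883.0 and 375.2 normalised, log2 ratio -1.23, -1.42 to -1.05). The other was the death receptor gene *Tnfrsf10b*, at 27 and 9 counts and named after its values were seen. *Cdkn1a* and *Mdm2*, the usual reporters of p53 activity, had log2 ratios of -0.16 and -0.27, *Ccng1* one of -0.10 and *Sesn1* one of -0.06.

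**Figure D4:**
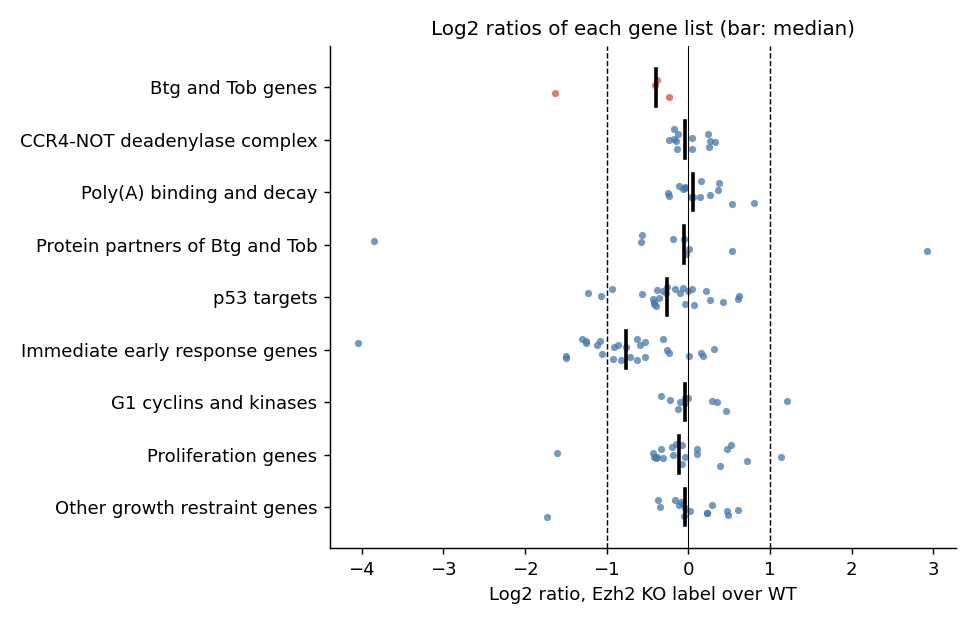
Log2 ratios (horizontal axis, library labelled Ezh2 KO over WT) of the counted Btg and Tob genes (red) and of the tested genes in 8 lists (blue), 1 point per gene with random vertical offset, black bars at the medians and dashed lines at 2-fold. The early response list sits lowest of the 8 with a median of -0.76, while the CCR4-NOT points stay between -0.24 and 0.33.

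The genes closest to *Btg2* in the plane of the 2 log2 normalised counts, by distance over these 2 libraries alone, were *Chst2*, *Stom*, *Sdpr*, *Ipo13* and *B4galt4*. The nearest, the sulfotransferase gene *Chst2*, had 604.1 and 259.9 normalised counts and a log2 ratio of -1.21, at a distance of 0.32. The log2 ratios of the other 4 ran from -1.35 for *Sdpr* to -0.88 for *B4galt4*. None of the 5 was as low as *Btg2* at -1.63, which is a description only, since *Btg2* was chosen for its fall.

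Markers of other blood cells differed between the libraries, with direction depending on the cell type. Over all genes tested, 3.9% were 2-fold lower and 4.91% were 2-fold higher. The 8 eosinophil markers summed to 2.08 CPM (WT) and 775 CPM (Ezh2 KO label), with 6 of 6 tested 2-fold higher. Of these, 5 (*Prg2* and *Epx* among them) were at 0 counts in WT and passed the minimum only through the library where they were high. *Ccr3* and *Siglecf*, below the minimum, each had 5 and 4 counts. The 8 neutrophil markers summed to 1846 and 3672 CPM, with 5 of 8 higher by 2-fold and *Elane* lower (log2 ratio -0.76), and the 7 erythroid markers to 53.8 and 194 CPM, with 5 of 5 tested higher by 2-fold and 2 globin rows at 0 in both. The 9 B lymphoid markers summed to 48.4 and 95.7 CPM and the 7 T and natural killer cell markers to 20.8 and 37.0 CPM, with 4 of 5 and 2 of 3 tested past 2-fold higher. Among those tested, *Igll1*, *Dntt*, *Cd3g* and *Il2rb* were at 0 in WT and passed the minimum only through the other library. *Cd4*, with 4 and 0 counts, was below it. Monocyte markers summed to 532 and 638 CPM and megakaryocyte markers to 265 and 191 CPM, with 1 of 4 and 0 of 4 tested past 2-fold, the 1 being lower (*Csf1r*, 24 and 5 counts). *Pf4* and *Itga2b*, of the megakaryocyte list, had log2 ratios of -0.65 and -0.68. Its other genes, *Gp1bb* and *Gp9*, had 0.11 and 0.17. Several of these counts rest on low values. With a minimum of 10 CPM the number 2-fold higher was 3 for eosinophil, 2 for erythroid, 0 for B lymphoid and 0 for T and natural killer cell markers, and the erythroid number was 3 with a pseudocount of 5 or with the WT library thinned. The part of these cells in the counts of *Btg1*, *Btg2*, *Tob1* and *Tob2* was not tested.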

How the data were processed

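RNA-seq of sorted HSCs was analysed from 2 libraries, 1 WT and 1 labelled Ezh2 KO, grouped by genotype as labelled. For every gene symbol the authors deposited a whole-number read count with no normalisation. According to the methods, total RNA was amplified with a SMARTer low-input kit, which copies full-length cDNA by PCR, the sheared cDNA was made into libraries with 8 cycles, and reads were aligned to mm10 with TopHat2 2.0.13 and Bowtie2 2.1.0 using the iGenomes annotation. StringTie is named as the counter, but the 5 closing entries are named as in htseq-count output. The counting rule and its use of strand are not given in the sources used here. Those entries held 56.1% (WT) and 56.9% of everything tallied and were left out. Reads with several alignments entered no gene, which lowers the counts of genes with close copies.

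Counts were divided by DESeq2 1.42.0 size factors (1.17 and 0.858; R 4.3.3), and log2 ratios were formed after adding 1. With 1 library per group neither edgeR nor DESeq2 can estimate a spread, so no test was run, and a gene was counted as different when at least 2-fold apart with a mean of at least 1 CPM. Intervals are exact 95% Clopper-Pearson intervals of the share of both counts that fell in one library, exact Poisson intervals of single counts, and Wilson intervals of shares; intervals of ratios between members are exact conditional ones. Code was tested on simulated data. Exon lengths and positions came from GENCODE M21 (GRCm38, equal to mm10), with 23376 symbols matched directly and 668 through an older name. All 5 members had an entry in the RefSeq promoter table. Other software was edgeR 4.0.16 for TMM, scipy 1.17.1 and numpy 2.4.6 under Python 3.11.15, pandas 2.3.3 and matplotlib 3.10.9.

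The members, the 18 gene lists and the rule for named genes were chosen with earlier results of these data known. The rule takes the members, other *Btg* and *Tob* rows, *Ezh2*, up to 4 genes per list past 2-fold with at least 10 CPM, *Cnot7* and *Cnot8*, and the 5 genes nearest to *Btg2*; not each gene it selects is described. Genes given only as examples of a list fall outside it. Alternatives were scaling by TMM or by total count, a pseudocount of 0.5 or 5, the WT library thinned to the depth of the other, ratios corrected for GC content and exon length, other folds and minimums, and another gene length.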

Additional observations from a re-analysis of the deposited data

How the results depend on the processing

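The log2 ratios of *Btg1*, *Btg2*, *Tob1* and *Tob2* kept their sign and stayed within their counting intervals under the 6 alternatives of scaling, pseudocount, thinning and correction for GC content and exon length. They ranged from -0.25 to -0.20 for *Btg1*, from -1.64 to -1.60 for *Btg2*, from -0.44 to -0.34 for *Tob1* and from -0.41 to -0.36 for *Tob2*. The number of members past the fold remained 1 at 1.5-fold and when the interval also had to leave out 0, and it was 0 at 4-fold, since *Btg2* was 3.09-fold lower. Over all genes, against 491 lower and 618 higher, a threshold of 1.5-fold gave 1261 and 1321, one of 4-fold gave 116 and 198, no minimum gave 1098 and 1404, and a minimum of 10 CPM gave 115 and 96. Of the p53 targets, 1 in place of 2 was past 2-fold with a pseudocount of 5 and with the minimum of 10 CPM, under which 0 partners of the family were past 2-fold in either direction. Using the longest transcript moved the level of *Tob2* per length to 34.8 and 26.7. Depth limits *Tob1* most, with 107 counts in the shallower library. No paired analysis was possible because a lone library stands for each genotype and no value here comes from a test.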

Other observations

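The G1 step of the cell cycle is the one that BTG and TOB proteins are known to slow. Of 11 genes for G1 cyclins, their kinases and E2F factors, 0 were 2-fold lower and 1 was 2-fold higher, against 3.9% and 4.91% of all genes tested. The median log2 ratio was -0.03 and the range -0.33 to 1.20. *Ccnd1*, the cyclin D gene whose transcription BTG2 and TOB are known to restrain, had 339.8 (WT) and 290.2 normalised counts (log2 ratio -0.23, 95% counting interval -0.46 to 0.00). *Ccnd2* had 4053 and 3931 and *Ccnd3* 2169 and 2166. The gene past 2-fold was *E2f2*, an activator of S-phase genes, with 40 and 69 counts (log2 ratio 1.20, 0.65 to 1.83).

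Of 20 proliferation genes, 1 was 2-fold lower and 1 was 2-fold higher, against 3.9% and 4.91% of all genes tested. Log2 ratios were below 0 for 13, against 50.4% of all genes, and the median was -0.11. *Mki67*, which marks cycling cells, had 44 and 72 counts (log2 ratio 1.13, 0.59 to 1.73), whereas *Bub1*, a kinase of the spindle checkpoint, had 89 and 21 (log2 ratio -1.60, -2.40 to -0.94). The mitotic cyclin gene *Ccnb1* had a log2 ratio of 0.72 and the replication helicase gene *Mcm2* one of -0.41.

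Of 17 other growth restraint genes, 16 were tested, 1 was 2-fold lower and 0 were 2-fold higher, against 3.9% and 4.91% of all genes tested. The median was -0.04. *Gas2l1*, entered in the list with its value known, had 192 and 42 counts (log2 ratio -1.73, -2.27 to -1.26), as low a ratio as that of *Btg2*. *Txnip* had 8702 and 13276 normalised counts (log2 ratio 0.61, 0.57 to 0.65), *Rbl2*, a pocket protein gene of quiescent cells, a log2 ratio of 0.48, and *Cdkn1c*, a cyclin-dependent kinase inhibitor gene of HSCs, one of 0.23.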
